A study of Mus musculus with 3 samples.

Results

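The genes described here encode the proteins of the mitochondrial ribosome. They were chosen by symbol alone, as the protein-coding genes of the RefSeq mouse table (GRCm38.p6, the mm10 assembly) whose symbol starts with Mrpl or Mrps followed by a digit. That rule took 78 of 21900 protein-coding genes on named chromosomes, 49 for the large subunit (Mrpl) and 29 for the small subunit (Mrps). The rule itself uses no measured value, but the genes were chosen with earlier results of these data known. Subunit here means the symbol's letter, although the proteins of Mrps18a and Mrps30 sit in the large subunit of solved mitochondrial ribosomes, and Mrps36 is now known as a component of the 2-oxoglutarate dehydrogenase complex.

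The study mapped RXRA, the alpha form of the retinoid X receptors, which pair with other nuclear receptors on DNA, in mouse blood stem and progenitor cells. It used CUT&RUN, in which an antibody bound to its target tethers a nuclease that cuts out the DNA beneath it. The HSC library was made from 10000 hematopoietic stem cells, sorted as Lin-cKit+Sca1+CD48-CD150+, and each of 2 MPP libraries from 50000 multipotent progenitors, sorted as Lin-cKit+Sca1+CD150-. The MPP libraries carry replicate numbers 1 and 2, and whether they came from separate pools of mice is not stated in the labels. The donors were C57BL/6 mice of about 10 months, pooled 3 or 4 at a time. Their genotype is given as VavCre+ and WT in one field and as Rxrabfl/fl (WT) in another. Vav-Cre is active across blood cells, and no library from mice without these alleles is used here. Cells of every library were exposed to bexarotene, an RXR agonist, at 1 mM for 1 h, so untreated cells cannot be compared, nor can binding with a control antibody.

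Mitochondrial ribosomes translate the few proteins encoded by mitochondrial DNA, all of them subunits of the respiratory chain and the ATP synthase. The small subunit reads the messenger RNA, and the large subunit joins amino acids and passes the new chain out through a tunnel to the inner membrane. All of the ribosome's proteins are made from nuclear genes and imported, so the nucleus and the mitochondrion must supply parts of the same machine. Blood stem cells are mostly quiescent and raise mitochondrial activity as they start to divide, and RXRA with partners such as the PPARs is known as a regulator of lipid and mitochondrial genes in other tissues.

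Promoters of 7 of these genes are shown first as examples of the patterns described below. Mrpl11 and Mrps9 had the highest HSC fold of their subunit among the genes with a peak in all 3 libraries. Mrpl57 and Mrps17 ranked best among the genes with peaks in the pair of MPP libraries and none in HSC. Mrpl14 and Mrps25 come first by symbol among the genes with no peak at a gene end. Mrps11, chosen after its values were seen, shares with Mrpl46 a peak that was called in HSC alone. Each window runs 5′ to 3′ along the gene's strand from 250 bases before its start of transcription to 50 bases after it, from RefSeq on GRCm38.p6. Capitals mark matches, on either strand, to any of 8 short motifs spelled out further on.
Mrpl11 (chr19:4962056-4962355, plus strand): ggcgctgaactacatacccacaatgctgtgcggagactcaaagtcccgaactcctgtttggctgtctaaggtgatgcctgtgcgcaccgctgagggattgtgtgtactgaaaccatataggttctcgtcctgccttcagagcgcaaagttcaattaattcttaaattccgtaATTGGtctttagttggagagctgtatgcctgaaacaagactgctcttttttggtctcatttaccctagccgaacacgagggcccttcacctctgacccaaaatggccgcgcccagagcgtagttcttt
Mrps9 (chr1:42850983-42851282, plus strand): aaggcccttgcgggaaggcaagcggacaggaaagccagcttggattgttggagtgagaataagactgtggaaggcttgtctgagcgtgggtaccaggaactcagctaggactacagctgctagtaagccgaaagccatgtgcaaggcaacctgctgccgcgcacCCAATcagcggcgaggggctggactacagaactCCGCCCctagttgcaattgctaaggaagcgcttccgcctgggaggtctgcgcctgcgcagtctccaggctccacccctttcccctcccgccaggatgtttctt
Mrpl57 (chr14:57825989-57826288, plus strand): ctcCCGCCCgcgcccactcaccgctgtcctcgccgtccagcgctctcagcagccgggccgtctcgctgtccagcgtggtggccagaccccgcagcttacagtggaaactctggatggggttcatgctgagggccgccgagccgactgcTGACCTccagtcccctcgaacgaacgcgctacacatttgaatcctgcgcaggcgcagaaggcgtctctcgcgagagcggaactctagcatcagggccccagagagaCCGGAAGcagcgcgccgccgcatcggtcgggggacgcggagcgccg
Mrps17 (chr5:129715247-129715546, plus strand): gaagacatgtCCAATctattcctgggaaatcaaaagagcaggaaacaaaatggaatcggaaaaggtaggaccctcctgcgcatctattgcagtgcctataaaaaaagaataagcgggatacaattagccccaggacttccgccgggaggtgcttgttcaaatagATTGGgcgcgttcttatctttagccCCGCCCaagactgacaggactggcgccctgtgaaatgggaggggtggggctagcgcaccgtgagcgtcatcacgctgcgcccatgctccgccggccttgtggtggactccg
Mrpl14 (chr17:45686099-45686398, plus strand): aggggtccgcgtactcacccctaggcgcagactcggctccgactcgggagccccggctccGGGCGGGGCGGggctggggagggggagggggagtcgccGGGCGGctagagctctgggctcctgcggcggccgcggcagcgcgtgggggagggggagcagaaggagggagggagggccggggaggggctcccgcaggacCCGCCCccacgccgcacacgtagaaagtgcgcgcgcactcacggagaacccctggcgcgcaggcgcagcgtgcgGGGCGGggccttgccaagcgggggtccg
Mrps25 (chr6:92183974-92184273, minus strand): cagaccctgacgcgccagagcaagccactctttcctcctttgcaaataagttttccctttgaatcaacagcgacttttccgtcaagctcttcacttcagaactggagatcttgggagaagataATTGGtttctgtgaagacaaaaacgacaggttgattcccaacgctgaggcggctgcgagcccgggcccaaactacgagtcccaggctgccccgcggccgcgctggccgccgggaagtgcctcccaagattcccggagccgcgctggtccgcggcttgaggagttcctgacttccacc
Mrps11 (chr7:78782881-78783180, plus strand): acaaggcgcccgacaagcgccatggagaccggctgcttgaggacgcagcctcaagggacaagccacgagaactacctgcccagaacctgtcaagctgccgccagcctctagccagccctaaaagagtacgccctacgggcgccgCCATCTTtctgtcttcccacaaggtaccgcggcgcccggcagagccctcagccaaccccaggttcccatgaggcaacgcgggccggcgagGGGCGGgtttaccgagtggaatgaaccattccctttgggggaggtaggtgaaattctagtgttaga

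The promoters of Mrps9, Mrpl57 and Mrps17 each hold the summit of every peak called over them. Mrpl11's window is overlapped by a peak in each library, but the summits lie just upstream of it. The windows of Mrpl14 and Mrps25 are overlapped by no peak, and Mrpl14's is the richer of the pair in GC bases, at 78%, against 57.7% in Mrps25. High GC content and GGGCGG matches are therefore found at a promoter without any peak as well.

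The deposited data are 1 peak list per library, with 4047 peaks in HSC, against 29848 in MPP replicate 1 and 19570 in replicate 2. No read totals come with the lists, so depth was read from the peaks themselves. The lowest background recovered from a list was 0.604 fragments in HSC, against 2.87 in MPP replicate 1 and 1.08 in replicate 2, which is 4.75 and 1.79 times the HSC value in the MPP libraries. The weakest peak in HSC needed 5 overlapping fragments, or 8.28 times background, against 3.48 times in MPP replicate 1 and 5.55 times in replicate 2. A gene without an HSC peak may therefore carry a signal below what that library could call. With 1 HSC library, made from fewer cells and without read counts, cell type and depth cannot be told apart, and no test of HSC against MPP was made.

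Mitochondrial ribosomal protein genes carried an RXRA peak at a gene end more often than protein-coding genes at large in each library. Marked means that a peak overlapped the 1 kb on either side of a gene's start or finish. In HSC 15 of the 78 genes were marked, or 19.2% (95% exact binomial interval 11.2% to 29.7%), against 8.21% of all protein-coding genes. In MPP replicate 1 the marked genes numbered 60, or 76.9% (66.0% to 85.7%), against 41.2% of all. In MPP replicate 2 they numbered 55, or 70.5% (59.1% to 80.3%), against 36.0% of all. The intervals cover counting error only, and genes are not replicates of a cell type. With each MPP list held to its 4047 peaks of highest fold, the length of the HSC list, the share was 23.1% in MPP replicate 1, against 8.83% of all genes, and 17.9% in replicate 2, against 10.1% of all. At a q-value of 1e-05 or below no member was marked in HSC (exact interval up to 4.62%), against 2.00% of all genes.

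**Figure D1:**
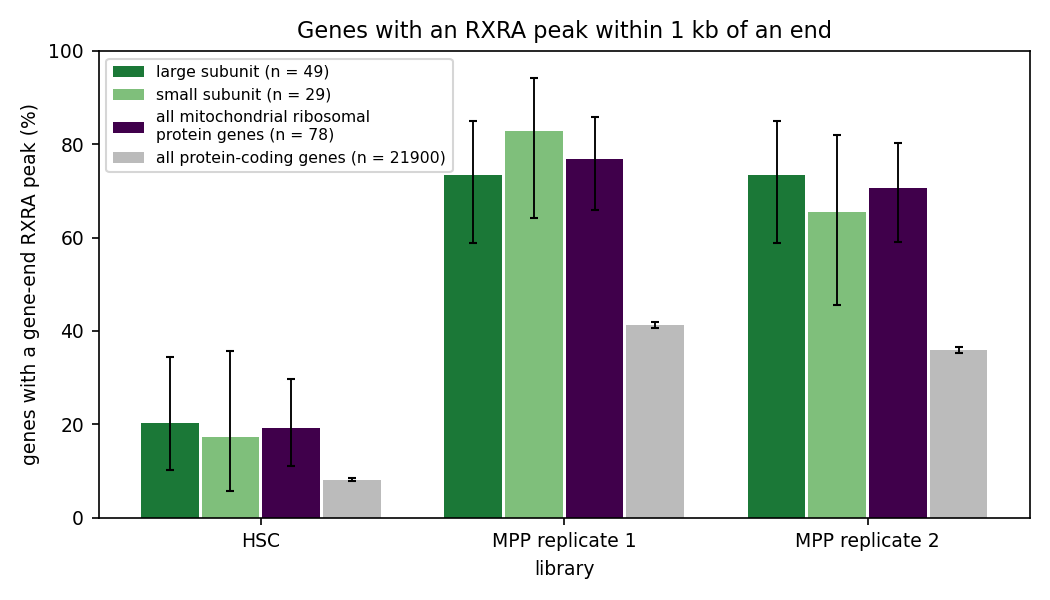
Percentage of genes with an RXRA peak within 1 kb of either gene end (y axis) in the HSC library and both MPP libraries (x axis), for large subunit genes, small subunit genes, all mitochondrial ribosomal protein genes and all protein-coding genes. Error bars are 95% exact binomial intervals. The share of mitochondrial ribosomal protein genes is 19.2% in HSC, against 76.9% in MPP replicate 1 and 70.5% in replicate 2, each above the grey bar of all protein-coding genes.

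Put together across libraries, 72 of the 78 genes were marked at least once and 6 were marked nowhere, or 7.69% against 51.4% of all protein-coding genes. The largest class had marks in both MPP libraries but none in HSC, with 35 genes, or 44.9% against 23.1% of all. With the MPP lists held to the HSC length that class had 2 genes, or 2.56% against 3.31% of all, and without peaks at the ends of several genes it had 17, or 21.8% against 16.6%. Marks in all 3 libraries were found at 11 genes, or 14.1% against 5.83% of all, and at 3 genes, or 3.85% against 1.44%, with the MPP lists so held. HSC and MPP replicate 1 shared 1 gene, Mrpl19 (1.28% against 0.338% of all), and HSC and replicate 2 shared none, against 1.74% of all. HSC alone marked 3 genes, Mrpl37, Mrpl46 and Mrps11, or 3.85% against 0.297% of all. MPP replicate 1 alone marked 13 genes, or 16.7% against 12.0% of all, and replicate 2 alone marked 9, or 11.5% against 5.32% of all. Among the 46 genes marked in both MPP libraries, 11 also had an HSC peak, or 23.9%. That share is near the 20.2% found over all genes marked in both MPP libraries, so an HSC mark was about as frequent here as at other genes with MPP marks.

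**Figure D2:**
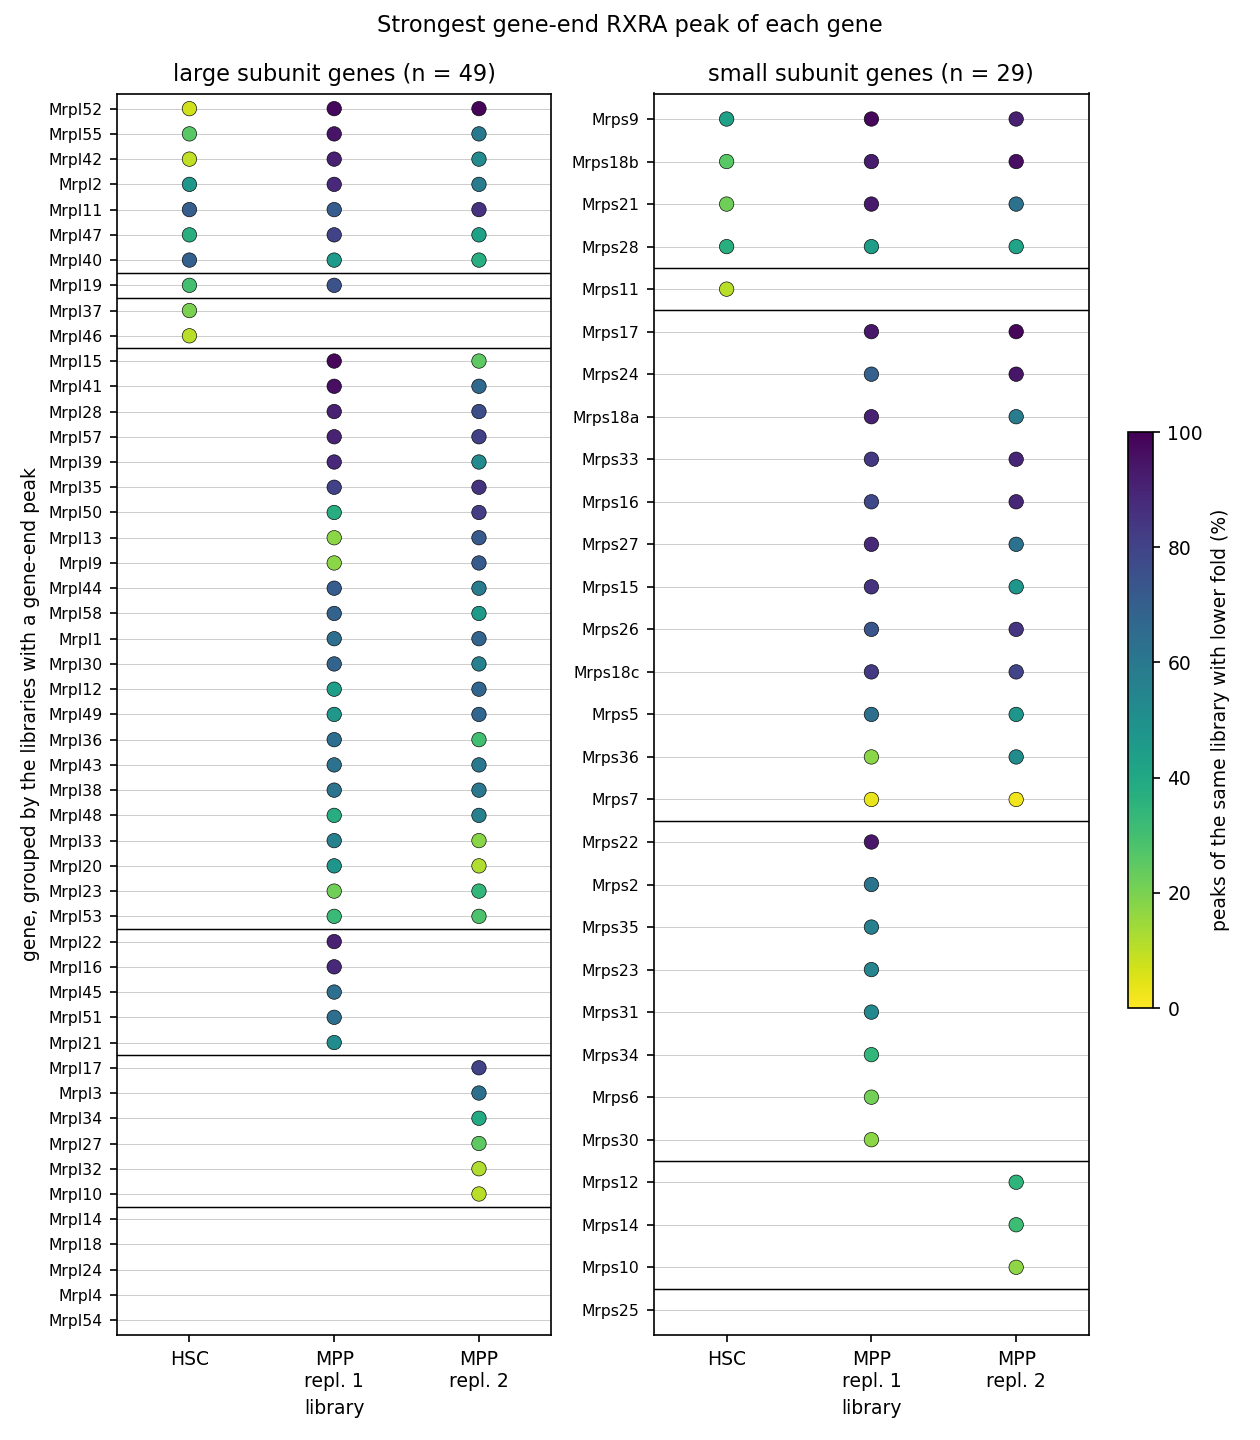
Strongest gene-end RXRA peak of every mitochondrial ribosomal protein gene (y axis, large subunit on the left and small subunit on the right) in the 3 libraries (x axis). A circle means that the gene was marked, its colour gives the percentage of peaks in the same library with a lower fold, and lines part the genes by the libraries that mark them. HSC circles are few and pale, with 13 of 15 below the median of the HSC list, whereas 44 of 60 circles in MPP replicate 1 and 35 of 55 in replicate 2 lie above their library's median. Over all marked genes, 895 of 1797 lay below the HSC median, and 62.9% and 62.1% above the medians of MPP replicates 1 and 2.

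The HSC peaks at these genes were weak ones. The strongest gene-end peak per marked gene had a fold enrichment, as given by the authors' peak caller, of 4.23 to 6.18 with a median of 4.89, against 5.50 over all marked genes. Of the 15 genes, 13 lay below the median of the HSC list, against 895 of all 1797 marked genes. None lay in its top 10%, where 5.51% of all marked genes lay. The peaks rested on 6 to 10 overlapping fragments at the summit. Pileups this small have wide counting intervals, such as 4.80 to 18.4 for the 10 fragments at Mrpl40. In MPP replicate 1 the member peaks stood higher in their list, with a fold of 3.08 to 8.79 and a median of 5.02, against 4.86 over all marked genes. Above the list median lay 44 of 60 genes, or 73.3% against 62.9% of all marked genes. There 14 of 60 genes were in the top 10% of the list, or 23.3% against 16.4% of all marked genes. In MPP replicate 2 the fold was 3.69 to 11.7 with a median of 6.02, against 6.13 over all marked genes, and 5 of 55 were in the top 10%, or 9.09% against 13.4%. Above the replicate 2 list median lay 35, or 63.6% against 62.1%. Folds are ranked within a list only, since the libraries differ in background.

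Among large subunit genes marked in all 3 libraries, Mrpl11 led in HSC. Mrpl11 encodes the counterpart of bacterial L11, a protein of the site where translation factors bind. Its fold was 6.18 in HSC, against 5.17 in MPP replicate 1 and 7.87 in replicate 2, on 9, 19 and 16 fragments in that order. The peaks lay at chr19:4961837-4962215 in HSC, at chr19:4961914-4962185 in MPP replicate 1 and chr19:4961723-4962238 in replicate 2, and all 3 overlap the upstream end of the promoter printed above. Mrpl40 had 6.14 in HSC, against 4.31 in MPP replicate 1 and 5.21 in replicate 2, at a peak that it shares with Hira, a histone chaperone gene that starts next to it. Mrpl2 encodes the counterpart of L2, which lies close to the catalytic centre of the ribosome. Its peaks had 5.44 in HSC, against 6.36 in MPP replicate 1 and 6.00 in replicate 2, but they sat just past the finish of the gene, within 1 kb of an end of Cul7, a ubiquitin ligase scaffold gene. Mrpl11 and Mrpl40 were the only members with a gene-end peak above the median of the HSC list.

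The remaining large subunit genes with marks in all 3 libraries were weaker in HSC. Mrpl47, which shares its peak with the complex I gene Ndufb5, had 5.12 in HSC, against 5.69 in MPP replicate 1 and 5.32 in replicate 2. Mrpl55 had 4.89 in HSC, against 7.34 in MPP replicate 1 and 6.06 in replicate 2. Mrpl42 had 4.32 in HSC, against 6.72 in MPP replicate 1 and 5.77 in replicate 2. Mrpl47, Mrpl55 and Mrpl42 all encode proteins of the large subunit, and only Mrpl47's peak lay at another gene's end as well. Mrpl52 had the weakest HSC peak of the 15 genes and the strongest MPP replicate 2 peak of all 55. Its fold was 4.23 in HSC, against 8.41 in MPP replicate 1 and 11.7 in replicate 2. The HSC peak (chr14:54426743-54427249) rested on 6 fragments (2.20 to 13.1), against 32 (21.9 to 45.2) in MPP replicate 1 and 29 (19.4 to 41.6) in replicate 2.

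Of the small subunit genes, 4 were marked in all 3 libraries. Mrps9 encodes the counterpart of bacterial S9, a protein of the head of the small subunit. Its fold was 5.33 in HSC, against 8.79 in MPP replicate 1 and 8.65 in replicate 2, on 8 (3.45 to 15.8), 33 (22.7 to 46.3) and 17 (9.90 to 27.2) fragments in that order. The peak spanned chr1:42851115-42851388 in HSC, at chr1:42851066-42851512 in MPP replicate 1 and chr1:42851071-42851407 in replicate 2, and its summits lay 31, 43 and 36 bp upstream of the start of transcription. The Mrps9 site was thus the same in each library, and the peak stood above 42.7% of the HSC list, 98.2% of the replicate 1 list and 91.2% of the replicate 2 list. Mrps28 had 5.12 in HSC, against 4.27 in MPP replicate 1 and 5.29 in replicate 2. Mrps21, the counterpart of S21, had 4.79 in HSC, against 7.01 in MPP replicate 1 and 6.21 in replicate 2. Mrps18b had 4.89 in HSC, against 6.98 in MPP replicate 1 and 9.89 in replicate 2. The Mrps18b peaks lay at the finish of the gene, where they also fall within 1 kb of an end of Atat1, a tubulin acetyltransferase gene. Weaker peaks at the start of Mrps18b had 4.42 in HSC and 6.07 in MPP replicate 2.

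Outside that class, 4 genes were marked in HSC. Mrpl19, the counterpart of L19 at the face between the subunits, had 4.99 in HSC and 5.33 in MPP replicate 1. No MPP replicate 2 summit lay nearer to it than 687012 bp. Mrpl37 had 4.74 in HSC on 7 fragments (2.81 to 14.4), at a peak (chr4:107066797-107067140) shared with the start of Cyb5rl, a reductase gene. Inside Mrpl37 the strongest HSC peak had a fold of 6.24, above every gene-end peak of a member in HSC, against 2.98 in MPP replicate 1 and no peak in replicate 2. Mrpl46 and Mrps11, a large and a small subunit gene, start back to back, and 1 HSC peak (chr7:78782957-78783228) lies over both starts. That peak had a fold of 4.37 on 6 fragments (2.20 to 13.1), in the lowest part of the HSC list, where 10.7% of peaks had a lower fold. The nearest MPP summits were 1434 bp from Mrps11 in replicate 1 and 90328 bp from Mrpl46 in replicate 2. The 3 genes marked in HSC alone thus come from 2 peaks, each seen in 1 library and each on 7 fragments or fewer.

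**Figure D3:**
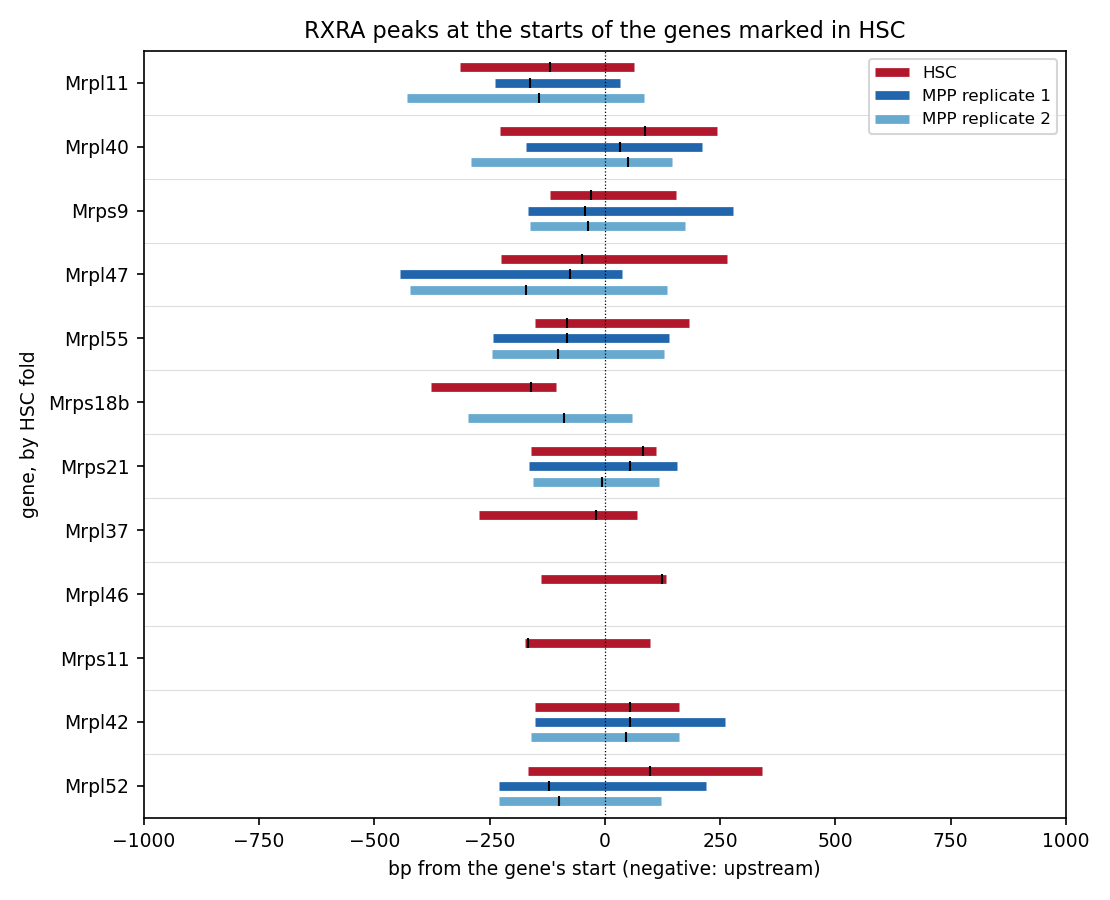
RXRA peaks around the gene start (x axis, bp from the start of the gene, negative upstream) of the HSC-marked genes with a known strand and a peak near the start (y axis, ordered by HSC fold). Bars are peaks, coloured by library, and ticks on them are summits. Mrps9 shows bars of all 3 libraries over its start, whereas Mrpl37, Mrpl46 and Mrps11 show HSC bars alone.

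Where an HSC peak and an MPP peak marked the same member, the strongest of each overlapped, in 12 of 12 cases with MPP replicate 1, against 84.7% of all such genes, and in 11 of 11 with replicate 2, against 93.0%. Of the 15 genes marked in HSC, 12 were marked in either MPP library, or 80% against 96.4% of all genes marked in HSC. The strongest HSC peaks of 12 of the 15 genes overlapped a peak in MPP replicate 1, or 80% against 67.7% of all genes marked in HSC. Those of 11 overlapped a peak in replicate 2, or 73.3%, against 1618 of the 1797 genes marked in HSC. The gap between summits had a median of 35.5 bp against MPP replicate 1 (0 to 217 bp) and 36.0 bp against replicate 2 (5 to 196 bp). Of the 46 genes marked in both MPP libraries, 41 had strongest peaks that overlapped each other, or 89.1% against 89.0% of all such genes, with a median gap of 51 bp between summits (2 to 456 bp). Other gene-end peaks overlapped at Mrpl41, Mrpl43 and Mrpl58, whose strongest peaks lay 834, 897 and 591 bp apart by their summits. At Mrpl33 and Mrpl53 no gene-end peaks of the MPP libraries overlapped.

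A further 35 genes were marked in both MPP libraries without an HSC peak at a gene end. Mrps17, the counterpart of the ribosomal RNA binding protein S17, ranked best, with a fold of 7.24 in MPP replicate 1 and 11.1 in replicate 2. Its peaks, at chr5:129715315-129715770 in replicate 1 and chr5:129715321-129715672 in replicate 2, lie over the start printed above, and the nearest HSC summit was 68626 bp away. Mrpl57, next in order, had 6.59 in replicate 1 and 7.41 in replicate 2 at a start shared with Ska3, a spindle and kinetochore gene. The large subunit genes Mrpl28 (6.66 and 7.05) and Mrpl35 (5.69 and 7.81) came next in that subunit, with replicate 1 given before replicate 2. Mrpl41 had its strongest peaks at separate sites, with a fold of 7.82 at a summit 835 bp upstream of the start in replicate 1 and 6.35 at a summit 1 bp upstream in replicate 2. Named by the same rule were the small subunit genes Mrps33 (5.94 and 8.28), Mrps18c (5.87 and 7.30), Mrps16 (5.48 and 8.28), Mrps27 (6.46 and 6.21) and Mrps26 (5.27 and 7.72), in the same order of replicates. Mrps16 is the counterpart of S16, and Mrps27 is a pentatricopeptide repeat protein of the small subunit. Neighbours shared the peak at Mrpl28 (Pgap6), Mrpl41 (Pnpla7), Mrps18c (Helq, a DNA helicase), Mrps16 (Cfap70) and Mrps27 (Ptcd2, another pentatricopeptide repeat gene). Across the 35 genes the fold was 3.08 to 8.79 in replicate 1 and 3.69 to 11.1 in replicate 2.

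Genes with an HSC mark stood higher in MPP replicate 1 than genes marked in both MPP libraries alone, but not in replicate 2. In replicate 1 the 12 HSC-marked genes had a median fold of 6.54, against 4.99 in the 35 genes marked in both MPP libraries alone. The middle gene of each set stood above 89.7% and 68.1% of the replicate 1 list in that order. In replicate 2 the 11 HSC-marked genes had a median of 6.06, against 6.10 in the 35. Genes marked in 1 MPP library alone, which also lack an HSC mark, had lower medians. These were 4.65 in replicate 1 (n = 13) and 4.98 in replicate 2 (n = 9). Of the 35 genes, 11 in replicate 1 and 34 in replicate 2 stood at or above 8.28 times their library's background, the lowest value in the HSC list. The median over all marked genes was 6.97 times background in replicate 1, below that value, and 12.9 times in replicate 2, above it. The share of all marked genes at or above it is not given here. The difference between the replicates was not tested.

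**Figure D4:**
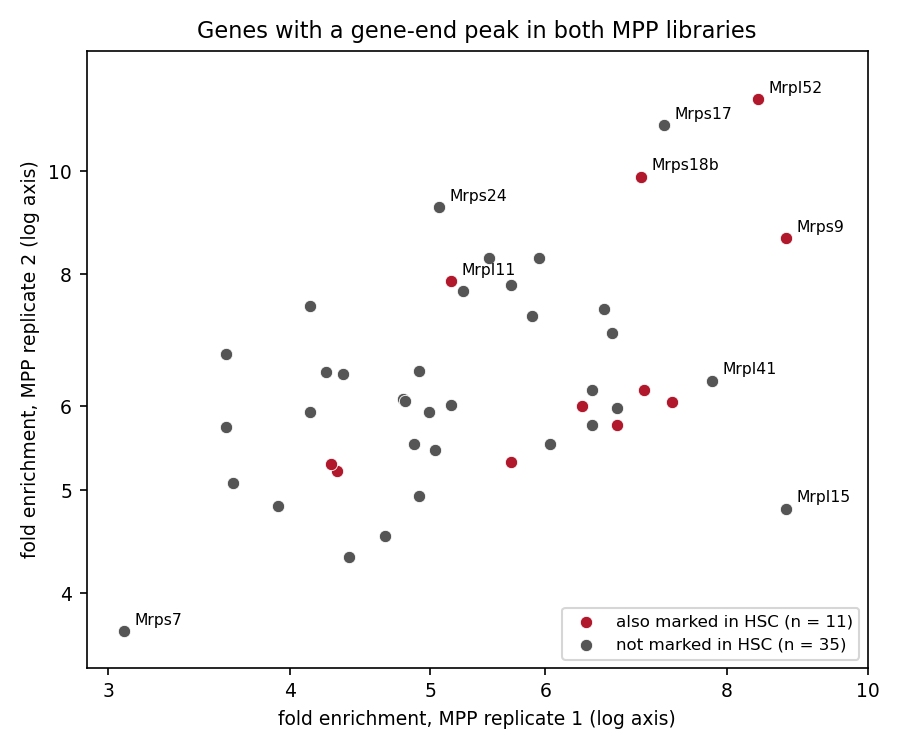
Fold enrichment of the strongest gene-end peak in MPP replicate 1 (x axis, log scale) against replicate 2 (y axis, log scale) for the 46 genes marked in both, whose strongest peaks overlap at 41, with genes also marked in HSC in red (n = 11) and the others in grey (n = 35). Mrpl52 (8.41 and 11.7) and Mrps17 (7.24 and 11.1) lie at the top, and Mrps7 (3.08 and 3.69) lies at the lower left.

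The MPP replicates differed at 22 genes that 1 of them marked and neither the other nor HSC did. In replicate 1 alone the strongest were Mrps22 at 7.24, Mrpl22 at 6.67, Mrpl16 at 6.46, and Mrpl45 and Mrpl51 at 4.91 each. Mrps22 encodes a protein found in mitochondrial and not in bacterial ribosomes, Mrpl22 lines the exit tunnel, and Mrpl45 ties the ribosome to the inner membrane. The Mrpl22 peak lay at the finish of the gene and the Mrpl51 peak also at an end of Ncapd2, a condensin gene. In replicate 2 alone the strongest were Mrpl17 at 7.30, Mrpl3 at 6.25, Mrpl34 at 5.28, Mrps12 at 5.12 and Mrps14 at 4.98. Mrps12 is the counterpart of S12 at the decoding centre, and its peak also lay at an end of Sars2, which encodes the mitochondrial seryl-tRNA synthetase. The Mrpl34 peak also lay at an end of Abhd8.

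The 6 genes without a gene-end peak in any library were Mrpl14, Mrpl18, Mrpl24, Mrpl4 and Mrpl54 of the large subunit and Mrps25 of the small subunit. Peaks lay inside 3 of them in both MPP libraries. Mrpl4 encodes the counterpart of L4, which reaches into the exit tunnel. The strongest peak inside Mrpl4 had a fold of 6.52 in replicate 1 and 5.97 in replicate 2, that inside Mrpl18 had 3.65 and 7.46, and that inside Mrpl14 had 4.05 and 4.33. Mrpl24, the counterpart of L24 near the tunnel exit, had its nearest summit 11954 bp away in HSC, against 6724 bp in MPP replicate 1 and 6702 bp in replicate 2. For Mrpl54 those distances were 54056, 9686 and 11485 bp in the same order. Of the 6, Mrps25 lay farthest from a peak in each library, at 197258 bp in HSC, against 30842 bp in MPP replicate 1 and 30901 bp in replicate 2.

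The shares of members with a peak inside the gene or within 50 kb were also above those of all genes, by smaller ratios. Both rules can count gene-end peaks again. With a peak inside the gene and none at an end, members fell below all genes. The shares were 1.28% against 4.51% in HSC, 6.41% against 13.8% in MPP replicate 1 and 7.69% against 11.4% in replicate 2. With peaks within 50 kb only, they were 26.9% against 21.2% in HSC, 16.7% against 23.8% in MPP replicate 1 and 16.7% against 25.4% in replicate 2. A peak lay inside 14 members in HSC, or 17.9% against 10.8% of all protein-coding genes. Inside the gene, MPP replicate 1 had 59 members, or 75.6% against 52.1%, and replicate 2 had 58, or 74.4% against 44.6%. The members are short, with a median length of 7.69 kb, against 17.1 kb over all protein-coding genes. Within 50 kb, HSC had a peak at 37 members, or 47.4% against 34.0%, MPP replicate 1 at 78, or 100% against 78.8%, and replicate 2 at 74, or 94.9% against 72.7%. The 4 members without an MPP replicate 2 peak within 50 kb were Mrpl19, Mrpl46, Mrps11 and Mrps30, of which Mrpl19, Mrpl46 and Mrps11 had an HSC peak at an end. Mrpl1 was the 1 member with an HSC peak inside the gene and none at its ends, at a fold of 5.81.

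Large and small subunit genes were marked at shares whose difference had an interval that included 0 in each library. Large subunit genes were marked in 10 of 49 cases in HSC, or 20.4%, against 5 of 29 small subunit genes, or 17.2%. In MPP replicate 1 the large subunit had 36 of 49 marked, or 73.5%, against 24 of 29, or 82.8%, in the small subunit. In MPP replicate 2 the large subunit again had 36, or 73.5%, against 19, or 65.5%, in the small subunit. The difference, large minus small, was 3.17 percentage points in HSC (95% Newcombe interval -16.3 to 19.5), -9.29 in MPP replicate 1 (-26.1 to 10.9) and 7.95 in replicate 2 (-12.0 to 28.9). Each interval reaches differences of 10 points or more in either direction, so these counts show neither a difference nor its absence. The sign differed between the MPP replicates. By pattern, the large subunit had 7 genes in all 3 libraries and 23 in both MPP libraries alone, and the small subunit had 4 and 12. Of the 6 genes without a mark, 5 belonged to the large subunit and 1 to the small.

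Peaks lay at the starts of these genes rather than at their finishes. Strand and start of transcription were known for 69 of the 78. In HSC 11 of 13 such marked genes had the summit nearer the start, or 84.6% against 92.7% of all marked genes. The share was 90.6% in MPP replicate 1 against 90.1% of all, and 94.1% in replicate 2 against 92.9% of all. Within 250 bp of the start lay 76.9% of summits in HSC, against 70.5% over all marked genes, 75.5% in MPP replicate 1, against 69.0%, and 76.5% in replicate 2, against 74.7%. In these shares the members resembled other marked genes.

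**Figure D5:**
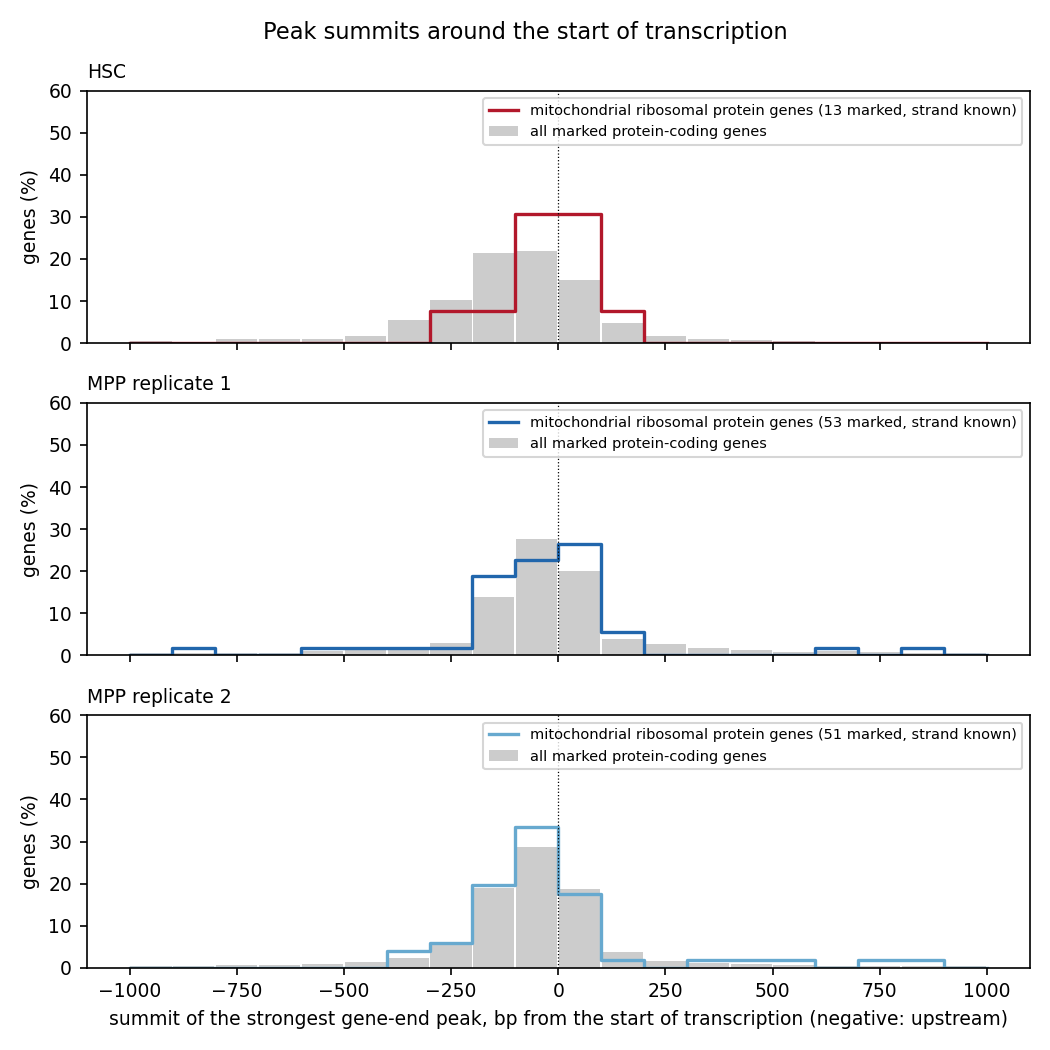
Summits of the strongest gene-end peak by distance from the start of transcription (x axis, bp in bins of 100, negative upstream), as a percentage of marked genes with known strand (y axis), in the HSC library and both MPP libraries. Coloured lines are mitochondrial ribosomal protein genes (13, 53 and 51 genes, top to bottom) and grey bars are all marked protein-coding genes. In each library both sets pile up at the start.

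Many member peaks lay at the end of another gene too, so they cannot be given to the member alone. Such a neighbour was found for 7 of 15 marked genes in HSC, or 46.7% against 35.4% of all marked genes. In MPP replicate 1 it was 29 of 60, or 48.3% against 25.8%, and in replicate 2 it was 28 of 55, or 50.9% against 30.1%. When peaks at the ends of several genes were left out, 8 members stayed marked in HSC, or 10.3% against 5.32% of all, 34 in MPP replicate 1, or 43.6% against 31.2%, and 28 in replicate 2, or 35.9% against 25.5%. Divergent starts were frequent among them. Of the 69 members with known strand, 22 had a divergent partner, or 31.9% against 8.05% of all genes with known strand. Such a partner starts on the opposite strand, up to 1 kb upstream of the gene's start or a shorter distance downstream. Mrpl46 and Mrps11 are each other's partner, and both are counted. Large subunit genes had a partner in 16 of 43 cases, or 37.2%, against 6 of 26, or 23.1%, in the small subunit. Partners with mitochondrial roles include Ndufb5 and Ndufs6 of complex I, beside Mrpl47 and Mrpl36, and Sars2 beside Mrps12. Other partners were Fau, which encodes a cytosolic ribosomal protein, beside Mrpl49, and the proteasome gene Psma2 beside Mrpl32.

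Members with a divergent partner were marked in HSC in 7 of 22 cases, or 31.8%, against 6 of 47, or 12.8%, of members without one. Over all genes the shares were 20.4% with a partner and 7.58% without. In MPP replicate 1 the members went the other way, with 15 of 22 marked, or 68.2%, against 38 of 47, or 80.9%, although over all genes the shares were 67.2% and 39.4%. In MPP replicate 2 the counts were 17 of 22, or 77.3%, against 34 of 47, or 72.3%, beside 75.6% and 33.6% over all genes. In both MPP libraries, members without a divergent partner were therefore marked at more than the rate of all genes without one. Members with a partner were marked there at close to the rate of all genes with one.

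The promoters were searched for 8 short motifs on both strands in the same 300-base window. The nuclear receptor core motif AGGTCA was found in 11 of 69 members, or 15.9% against 16.7% of all promoters in the table. Its direct repeat with 1 base between, a form that RXR dimers bind, was found in no member and in 0.0572% of all promoters. The core motif was in 2 of the 13 HSC-marked members with a promoter in the table, or 15.4%, against 9 of the 56 others, or 16.1%. Letters missing from these windows say nothing of the factor, which may bind other spellings or other positions.

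Of the other 6 motifs, those of ETS factors, YY1 and NRF1 were found in a larger share of members than of all promoters, and the other three were not or hardly so. CCGGAAG, an ETS family motif, was found in 26 of 69 members, or 37.7%, against 12.9% of all promoters and 23.8% of promoters of genes marked in both MPP libraries. AAGATGG, found in YY1 sites, was in 13 members, or 18.8%, against 7.18% of all and 8.37% of those marked in both MPP libraries. GCGCATG, part of the NRF1 site, was in 8 members, or 11.6%, against 5.40% of all and 8.02% of those marked in both. GGGCGG, the SP and KLF motif, was in 49.3% of members against 49.2% of all and 70.0% of those marked in both, the E-box CACGTG was in 7.25% against 8.91% of all and 11.7% of those marked in both, and CCAAT was in 39.1% against 42.3% of all and 42.3% of those marked in both. By subunit, CCGGAAG was in 15 of 43 large (34.9%) and 11 of 26 small subunit genes (42.3%). In the same order, GGGCGG was in 17 (39.5%) and 17 (65.4%), and GCGCATG in 7 (16.3%) and 1 (3.85%). These subunit differences rest on few genes and were not tested. The median member promoter had 58.0% GC bases, against 56.3% over all promoters, and 21 CpG dinucleotides, against 13 over all and 21 among genes marked in both MPP libraries. Motif shares are descriptions of letters, and the GC content of the promoters was not matched.

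The other genes of mitochondrial translation were marked more often in the MPP libraries than in HSC, as protein-coding genes at large were. Of all protein-coding genes, 8.21% were marked in HSC, against 41.2% in MPP replicate 1 and 36.0% in replicate 2. A list of 6 ribosome proteins under other names includes Oxa1l, which encodes an insertase that binds the ribosome and is not a ribosomal protein. Of the 6, none was marked in HSC, against 4 (66.7%) in MPP replicate 1 and 3 (50%) in replicate 2. Oxa1l was among those marked in both MPP libraries. Of 13 translation factors, 1 was marked in HSC (7.69%), against 11 (84.6%) in MPP replicate 1 and 7 (53.8%) in replicate 2. The HSC gene was Mtrf1l, a release factor that ends translation, with a fold of 8.93 in HSC, against 3.62 in MPP replicate 1 and 7.91 in replicate 2. Of 20 ribosome assembly factors, 3 were marked in HSC (15%), against 15 (75%) in MPP replicate 1 and 16 (80%) in replicate 2. Nsun4, a ribosomal RNA methyltransferase, had 6.08 in HSC, against 6.59 in MPP replicate 1 and 8.30 in replicate 2. Rbfa, which matures the small subunit, had 4.89 in HSC, against 9.20 in MPP replicate 1 and 7.74 in replicate 2. Mpv17l2, an inner membrane protein needed for ribosome assembly, had 5.38 in HSC and 6.67 in replicate 2 and no gene-end peak in MPP replicate 1. The lists are short, and none was tested against the shares of all protein-coding genes.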

How the data were processed

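RXRA CUT&RUN was analysed in 3 mouse libraries, 1 of HSC and 2 of MPP. Per the labels' protocols, cells were permeabilised with 0.025% digitonin, incubated with the antibody at 1:50, given protein A-MNase at 700 ng/mL for 1 h and digested for 30 min. Per the submitters' processing notes, the tools named are MACS2 2.1.4, Bowtie2 2.3.4.1, cutadapt 1.9.1 and Trim Galore 0.4.2 (named without an order), on build mm10. No source used here gives the settings, the handling of duplicates or a control library. The authors deposited 1 narrowPeak list per library. The deposited fold is a ratio at the summit, and the deposited columns of −log10 p and −log10 q were kept unchanged. The weakest deposited q-value is 0.0995 in HSC, with 0.0971 and 0.0993 in MPP replicates 1 and 2. The score that the authors deposited was not used.

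From these, pileup and local background were solved per peak, with 1 added to each before the division that gives fold, and p as a Poisson tail. Whole pileups (tolerance 0.001 on the −log10 scale) resulted for 99.98% of peaks in HSC, against 100% in MPP replicate 1 and 99.99% in replicate 2. Pileup intervals are exact Poisson and share intervals exact binomial (Clopper-Pearson, 95%), for counting error only. Overlaps needed 1 bp. The gene table gives no exons, so peaks are placed by distance from gene ends, and strand came from the RefSeq promoter table, which held 69 of 78 members. Marking and pileup recovery were tested on simulated data. Python 3.11.15, numpy 2.4.6, scipy 1.17.1 and pandas 2.3.3 were used. The members and lists were chosen with earlier results of these data known. Named genes are all members marked in HSC, the 10 of best worse rank in both MPP libraries alone and all without a gene-end peak. The 5 of highest fold in each MPP library alone are named too. The exceptions to overlap, Mrpl1, Mrps7, Mrps30, Oxa1l and neighbours were named after their values were seen. Alternatives changed the window, overlap rule, q-value, list length, shared peaks and member set.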

Additional observations from a re-analysis of the deposited data

How the results depend on the processing

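No paired analysis was possible because the labels give the HSC library no replicate number and no result comes from a test. Holding each MPP list to the HSC length left 18 marked members in MPP replicate 1, 14 in MPP replicate 2, 3 in all 3 libraries and 2 in both MPP libraries and not HSC, or 2.56% against 3.31% of all genes; the large minus small difference in MPP replicate 2 became -15.3 points. Leaving out peaks at the ends of several genes left 8 in HSC, 34 in MPP replicate 1, 28 in MPP replicate 2, 7 in all 3 libraries and 17 in both MPP libraries and not HSC. A q-value of 1e-05 left 0 in HSC and 0 in all 3 libraries. Without 1 MPP replicate, 11 to 12 genes were marked in HSC and the remaining library, and 44 to 48 in that library and not HSC. Of 87 values in all, the other 75 kept counts within 1.5 times those reported or differences inside the intervals given, although the sign of the difference turned in HSC with a 5 kb window (-3.73) and without shared peaks (-0.14), and in MPP replicate 2 without shared peaks (-8.73) and with a 500 bp window (-2.25). The member share exceeded that of all genes in 29 of 30 comparisons per library, the exception being HSC at the stricter q-value. These counts include values that could not change, as holding the MPP lists leaves the HSC list as it was. At the stricter q-value the HSC subunit difference was 0 because no member was marked. The strongest gene-end peaks of members in HSC rest on 6 to 10 fragments, and cell type and depth cannot be told apart. A missing HSC peak is not an absence of RXRA.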
